A study of Danio rerio with 12 samples.

Results

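The claudin genes are a family of membrane proteins that seal or selectively open the space between epithelial and endothelial cells. They were taken as every row whose Ensembl identifier maps to a symbol beginning with cldn in upper or lower case, leaving out 4 identifiers whose symbols begin with cldnd or cldnk. This rule gave 38 genes with 35 different symbols, out of 32520 genes in the files, and it used no measured value. Sums and shares of claudin RNA given below cover these 38 genes and leave out those 4 identifiers. 3 symbols are each held by a pair of genes (CLDN5, CLDN10 and CLDN11), which are told apart by their identifiers. RNA was sequenced from whole zebrafish larvae at 120 hpf (hours post fertilization), with 30 larvae pooled per sample, in 6 elmo2-/- and 6 elmo2+/+ samples. All larvae carried the Tg(fli1:EGFP) reporter, in which endothelial cells express EGFP, and the elmo2-/- line is a CRISPR/Cas9 frameshift deletion in elmo2. Larvae of the study were kept in egg water with or without PTU, which suppresses pigmentation, and which of these held for the sequenced pools was not given. The labels do not say that the pools came from separate clutches, so p-values measure the spread between these pools.

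Each claudin spans the membrane several times and reaches with its outer loops to claudins of the next cell, which forms the strands of the tight junction. Sealing claudins hold back ions and water, whereas channel-forming claudins such as those of the gut and the kidney tubule let selected ions pass between the cells. On the inner side most claudins bind the scaffold proteins of the zonula occludens family, which anchor the junction to the actin cytoskeleton. Elmo2 acts with Dock proteins to activate the small GTPase Rac, a regulator of that cytoskeleton. The comparison of elmo2-/- with elmo2+/+ larvae asks whether the RNA of any claudin differs when Elmo2 is lost. In RNA of whole larvae, fewer cells of a type and less RNA per cell cannot be told apart.

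The samples held between 20116203 and 20560518 estimated counts in elmo2-/- and between 20245232 and 20939679 in elmo2+/+, of which the claudin genes made up 0.0444% to 0.0745%. The targeted gene elmo2 had 40.7 ± 8.91 CPM (estimated counts as a share of the library total, scaled with TMM factors) in elmo2-/- larvae, from 31.4 to 51.6, and 77.2 ± 14.2 CPM in elmo2+/+ larvae, from 56.3 to 92.4 (SD, n = 6 each). Its log2 fold change was -0.93 (SE 0.15), with an unadjusted p of 2.88e-05 and an adjusted p of 0.642 in edgeR's quasi-likelihood test, and with an exact two-sided permutation p of 0.00216, the smallest that 6 against 6 samples allow. The call of elmo2 depended on the test. With DESeq2 its adjusted p was 0.000123. The related genes elmo1 (132 and 128 CPM in elmo2-/- and elmo2+/+ larvae) and elmo3 (5.42 and 5.83 CPM) had adjusted p of 0.9997 in edgeR's test. The elmo2-/- libraries are numbered 13 to 16 in replicates 1 to 4 and 7 and 8 in replicates 5 and 6, and the elmo2+/+ libraries 1 to 6, so that what goes with these numbers and what goes with the genotype cannot be told apart.

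Claudin RNA was dominated by a few genes. Levels between genes were compared in TPM, a share of all transcripts that takes transcript length into account. 18 of the 38 genes had a mean above 10 TPM over the 12 samples, 11 lay between 1 and 10 TPM and 9 lay under 1 TPM. The 5 most abundant genes, cldn15la, cldn1, cldni, cldnb and cldne, held 53.1% of the summed claudin TPM, and together with cldn7a, cldn7b, cldn3c, cldn8.2 and cldn15lb they held 71.2%. The summed claudin TPM was 529 ± 99.1 in elmo2-/- and 533 ± 94.4 in elmo2+/+ larvae (SD, n = 6 each). Among these are genes known from the skin and from the gut.

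**Figure D1:**
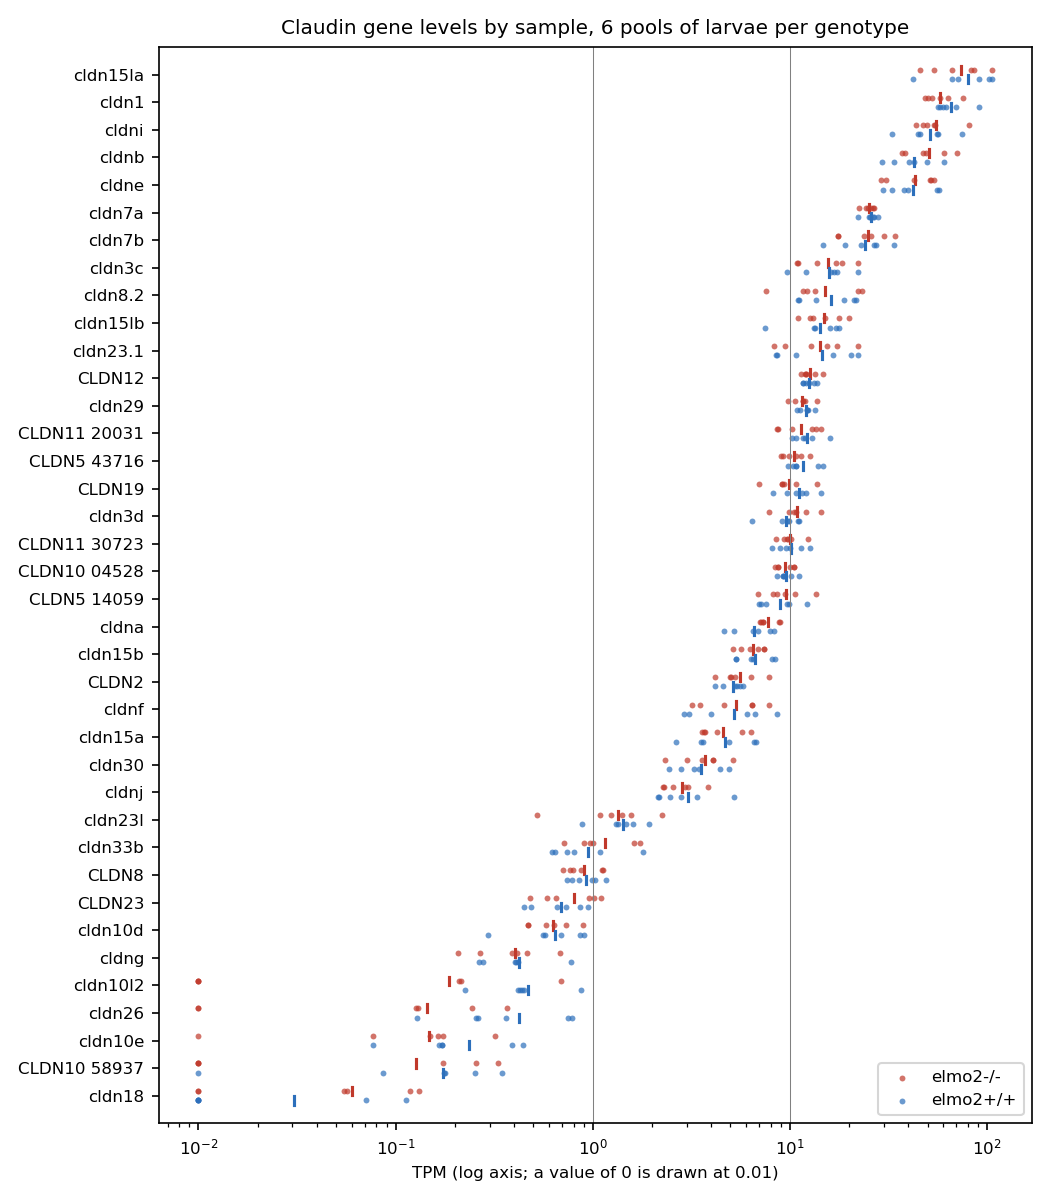
Level of each of the 38 claudin genes in TPM on a log axis, 1 point per sample, with elmo2-/- above elmo2+/+ in each row and a vertical tick at each mean; values of 0 are drawn at 0.01 TPM, and the vertical lines mark 1 and 10 TPM. Symbols held by a pair of genes are followed by the last digits of the Ensembl identifier. The points of elmo2-/- and elmo2+/+ overlap in every row, and the means run from about 76.9 TPM for cldn15la to 0.0455 TPM for cldn18.

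Several of the most abundant claudins are known from surface epithelia. cldn1, which in mammals seals the epidermis, ranged from 48.3 to 75.8 TPM in elmo2-/- larvae with a median of 55.3 TPM, and from 56.5 to 90.9 TPM in elmo2+/+ larvae with a median of 60.8 TPM. cldni, which is expressed in fish surface epithelia, ranged from 43.9 to 81.6 TPM (median 51.8) in elmo2-/- and from 33.0 to 74.7 TPM (median 50.8) in elmo2+/+ larvae. cldnb, widely used as a marker of the lateral line and other placodal epithelia, ranged from 36.9 to 70.9 TPM (median 48.3) in elmo2-/- and from 29.4 to 60.4 TPM (median 41.6) in elmo2+/+ larvae. The ranges of these genes overlapped each other and that of cldne. The latter ran from 29.2 to 53.8 TPM in elmo2-/- and from 29.8 to 57.3 TPM in elmo2+/+ larvae. Overlap of ranges alone does not settle their order, since the genes were measured in the same samples. Within most samples cldne lay below cldn1 and cldni. The order did change between samples. In elmo2+/+ replicate 2 cldne, with 57.3 TPM, lay above cldn1 (56.5), cldni (44.7) and cldnb (40.3). In elmo2+/+ replicate 4 cldne, with 39.8 TPM, lay below cldn1 (69.6), cldni (55.6) and cldnb (49.95).

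cldne and cldnf are known from the outermost layer of the embryonic skin. cldne had 43.3 ± 11.1 TPM in elmo2-/- and 42.3 ± 11.5 TPM in elmo2+/+ larvae, whereas cldnf had 5.35 ± 1.86 and 5.22 ± 2.27 TPM. The pair cldn7a and cldn7b, whose mammalian relative binds the adhesion molecule EpCAM, had nearly the same mean level. cldn7a averaged 25.1 ± 1.57 TPM in elmo2-/- and 25.7 ± 1.99 TPM in elmo2+/+ larvae, and cldn7b averaged 24.9 ± 6.66 and 24.1 ± 6.76 TPM. Their spread differed: over the 12 samples the CPM of cldn7a had a coefficient of variation of 8.99%, and that of cldn7b 22.5%. cldn3c, also known as cldnh, had 15.6 ± 4.49 and 15.7 ± 4.35 TPM, cldn3d 10.9 ± 2.196 and 9.57 ± 1.72 TPM, and cldna 7.76 ± 0.873 and 6.59 ± 1.47 TPM in elmo2-/- and elmo2+/+ larvae.

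Among the claudins of the digestive tract, cldn15la had the highest mean of the family. Its promoter is a common tool to mark the gut epithelium of zebrafish. It ranged from 45.6 to 107 TPM in elmo2-/- larvae with a median of 74.9 TPM, and from 42.4 to 106 TPM in elmo2+/+ larvae with a median of 81.3 TPM. cldn15lb, which is known from the bile canaliculi of the zebrafish liver, had 14.96 ± 3.38 TPM in elmo2-/- and 14.2 ± 3.80 TPM in elmo2+/+ larvae. The related genes cldn15a (4.56 ± 1.20 and 4.69 ± 1.70 TPM) and cldn15b (6.49 ± 0.937 and 6.68 ± 1.33 TPM) were lower. Claudin-15 proteins form paracellular channels for sodium ions in the mammalian gut.

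In mammals claudin-5 seals the endothelium of the blood-brain barrier. The CLDN5 gene ENSDARG00000043716 had 10.5 ± 1.38 TPM in elmo2-/- and 11.7 ± 2.04 TPM in elmo2+/+ larvae, and the CLDN5 gene ENSDARG00000014059 had 9.59 ± 2.36 and 8.92 ± 2.07 TPM. Claudin-11 forms the tight junctions of central myelin in mammals. The CLDN11 gene ENSDARG00000020031 had 11.4 ± 2.54 TPM in elmo2-/- and 12.2 ± 2.04 TPM in elmo2+/+ larvae, and the CLDN11 gene ENSDARG00000030723 had 9.996 ± 1.32 and 10.1 ± 1.64 TPM. CLDN19, known from Schwann cells and the kidney tubule of mammals, had 9.88 ± 2.29 and 11.1 ± 2.14 TPM.

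Claudin-2 and claudin-10 are channel-forming claudins of the mammalian kidney tubule. CLDN2 had 5.60 ± 1.31 TPM in elmo2-/- and 5.13 ± 0.621 TPM in elmo2+/+ larvae, and the CLDN10 gene ENSDARG00000104528 had 9.48 ± 0.980 and 9.60 ± 0.893 TPM. The other CLDN10 gene, ENSDARG00000058937, was barely measured, with 0.127 ± 0.147 and 0.173 ± 0.122 TPM, and no estimated count in 4 of the 12 samples. cldnj, which is needed for otolith formation in the zebrafish ear, had 2.83 ± 0.581 TPM in elmo2-/- and 3.03 ± 1.16 TPM in elmo2+/+ larvae. CLDN12, a claudin that in mammals lacks the usual binding site for scaffold proteins, had 12.6 ± 1.25 and 12.5 ± 0.874 TPM. The remaining genes above 1 TPM were cldn8.2 (15.1 ± 6.23 and 16.2 ± 4.88 TPM), cldn23.1 (14.3 ± 5.16 and 14.5 ± 6.03 TPM), cldn29 (11.6 ± 1.36 and 12.1 ± 0.900 TPM), cldn30, cldn23l and cldn33b.

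9 genes lay under 1 TPM, of which CLDN8 and CLDN23 passed the filter on low counts. The other 7, cldn10d, cldng, cldn10l2, cldn10e, cldn26, cldn18 and the CLDN10 gene ENSDARG00000058937, had mean estimated counts between 0.789 and 6.75 per sample and were not tested for a difference between genotypes. cldn18, which in mammals is a claudin of lung and stomach, rounded to 0 counts in 6 of the 12 samples. A count of 0 allows a level of up to 3 counts, which is 0.137 to 0.156 CPM in these samples. With every gene of at least 1 count kept, all 38 claudins entered the edgeR fit and 0 were called. In that fit cldn26 had an unadjusted p under 0.05, as did 4.53% of all genes. It had 0 to 3 estimated counts per elmo2-/- sample and 1 to 6 per elmo2+/+ sample. 6 of the 7, all but cldn18, had a lower mean TPM in elmo2-/- larvae, but the ranges of the genotypes overlapped for each. In CPM, cldng had a higher mean in elmo2-/- (0.209) than in elmo2+/+ larvae (0.178), at 2 to 7 estimated counts per sample.

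No claudin was called between elmo2-/- and elmo2+/+ larvae. Of the 38 genes, 31 passed the filter on low counts, and 0 of these had an adjusted p under 0.05 in edgeR's quasi-likelihood test, as did 0% of all 22259 genes tested. DESeq2 also called 0 claudin genes. At an unadjusted p under 0.05 there was 1 claudin, cldna, or 3.23% of those tested, against 4.68% of all genes (2.55% higher and 2.13% lower in elmo2-/- larvae). The adjusted p of every claudin was at least 0.9997. For 0 of the 38 genes did the CPM of the genotypes separate without overlap, which was seen for 0.198% of all genes tested.

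The fold changes of the claudins were as small as those of other genes. The log2 fold change, elmo2-/- over elmo2+/+, lay between -0.16 for cldn1 and 0.32 for cldn33b. 21 of the 31 genes (67.7%) changed by less than 0.1 on the log2 scale in either direction, against 59.8% of all genes tested. The median of the absolute log2 fold change was 0.0782 for claudins and 0.0787 for all genes. The 95% interval of the log2 fold change stayed within 1 of zero for all 31 genes, and within 0.5 for 23 of them. Its outermost bounds were -0.66 for cldn23l and 0.90 for cldn33b, 2 of the genes with the lowest counts.

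In direction, 21 claudins had a higher and 10 a lower estimate in elmo2-/- larvae, so that 67.7% were higher against 49.8% of all genes tested. The median log2 fold change was 0.034 for claudins and -0.00061 for all genes. This split depended on the scaling and on single libraries. It was 18 higher and 13 lower with library size alone, 16 higher and 15 lower in limma on log2(TPM + 0.1), and 15 higher and 16 lower in limma on log2(TPM + 1). Without elmo2-/- replicate 3 it was 15 higher and 16 lower with a median of -0.0033, and without elmo2+/+ replicate 6 it was 17 higher and 14 lower. In the other direction, it was 24 higher and 7 lower without elmo2-/- replicate 4, and 23 higher and 8 lower without elmo2-/- replicate 5 or elmo2+/+ replicate 4. With the elmo2-/- libraries 7 and 8 alone against all elmo2+/+ samples, 10 genes were higher and 21 lower. With libraries 13 to 16 alone, 22 were higher and 9 lower.

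**Figure D2:**
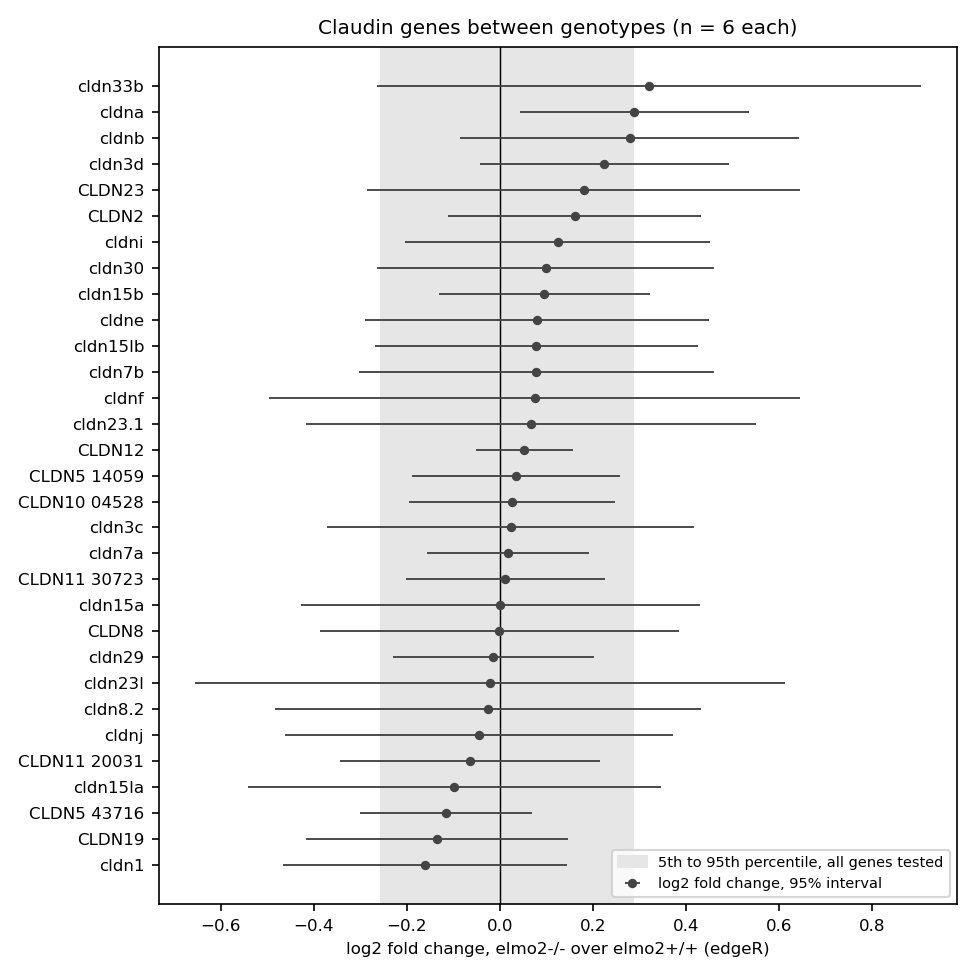
Log2 fold change of each of the 31 tested claudin genes, elmo2-/- over elmo2+/+, with its 95% interval from edgeR (n = 6 each); the grey band spans the middle 90% of all genes tested, from -0.26 to 0.28. cldna is the gene whose interval, 0.043 to 0.53, leaves out zero before adjustment for multiple testing.

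cldna had the smallest p of the family. It ranged from 10.3 to 13.2 CPM in elmo2-/- larvae with a median of 11.6 CPM, and from 6.85 to 11.1 CPM in elmo2+/+ larvae with a median of 9.86 CPM. All 6 elmo2-/- samples lay above the elmo2+/+ mean of 9.51 CPM, while the highest elmo2+/+ samples, replicates 1 and 2, reached above the lowest elmo2-/- sample. Its log2 fold change was 0.29 (SE 0.11), with an unadjusted p of 0.0245 and an adjusted p of 0.9997 in edgeR's test, and an exact two-sided permutation p of 0.0152. Over all alternative settings its fold change stayed positive, between 0.21 and 0.38, and its lowest adjusted p was 0.673. Its estimated counts were whole numbers in none of the 12 samples, so that its value rests in part on how reads shared with other genes were divided. How large that part was, was not determined.

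Of the other genes with a higher estimate, cldnb ranged from 30.1 to 50.4 CPM in elmo2-/- larvae with a median of 36.6 CPM, and from 22.7 to 41.6 CPM in elmo2+/+ larvae with a median of 31.0 CPM. The samples overlapped over most of this range, and its log2 fold change was 0.28 (SE 0.17, adjusted p of 0.9997 in edgeR). cldn3d, the neighbour of cldnb in the genome, ranged from 11.7 to 18.1 CPM (median 15.6) in elmo2-/- and from 9.05 to 14.9 CPM (median 13.8) in elmo2+/+ larvae. 5 of the 6 elmo2-/- samples lay above the elmo2+/+ mean, and the log2 fold change was 0.22 (SE 0.12). CLDN2 (0.16, SE 0.13) and cldn33b (0.32, SE 0.27) were the next in order of p, and cldn33b had only 9 to 24 estimated counts per sample.

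Among the genes with a lower estimate, the CLDN5 gene ENSDARG00000043716 ranged from 11.3 to 13.1 CPM in elmo2-/- larvae with a median of 12.3 CPM, and from 11.3 to 15.2 CPM in elmo2+/+ larvae with a median of 12.8 CPM. The elmo2+/+ replicates 1 and 2 were its highest samples, and its log2 fold change was -0.12 (SE 0.086, unadjusted p 0.201 in edgeR). The other CLDN5 gene, ENSDARG00000014059, had a log2 fold change of 0.034 (SE 0.10). Of 17 further genes of endothelial cells tested, 5 had a higher and 12 a lower estimate in elmo2-/- larvae, 0 were called in edgeR and 1 of the lower ones had an unadjusted p under 0.05 (over all genes tested, 49.8% had a higher estimate and 4.68% such a p), and their summed level spanned 259 to 399 CPM in elmo2-/- larvae and 265 to 410 CPM in elmo2+/+ larvae, with 0 genes at 0 in all samples. The part of these cells in the CLDN5 values was not tested.

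cldn1 ranged from 18.6 to 26.3 CPM (median 19.2) in elmo2-/- and from 18.8 to 32.6 CPM (median 22.0) in elmo2+/+ larvae. Its highest values were those of elmo2+/+ replicates 3 and 4, and its log2 fold change was -0.16 (SE 0.14). CLDN19 (-0.14, SE 0.13), the CLDN11 gene ENSDARG00000020031 (-0.064, SE 0.13) and cldn15la (-0.098, SE 0.21) completed the 5 lower genes of smallest p, all with an adjusted p of 0.9997 in edgeR's test. cldnj had a log2 fold change of -0.045 (SE 0.19). Of 19 other genes of the inner ear tested, 3 had a higher and 16 a lower estimate in elmo2-/- larvae with 0 called in edgeR and 1 of the lower ones at an unadjusted p under 0.05 (49.8% higher and 4.68% at such a p over all genes), and their summed level spanned 174 to 220.1 CPM in elmo2-/- larvae and 197 to 243 CPM in elmo2+/+ larvae.

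**Figure D3:**
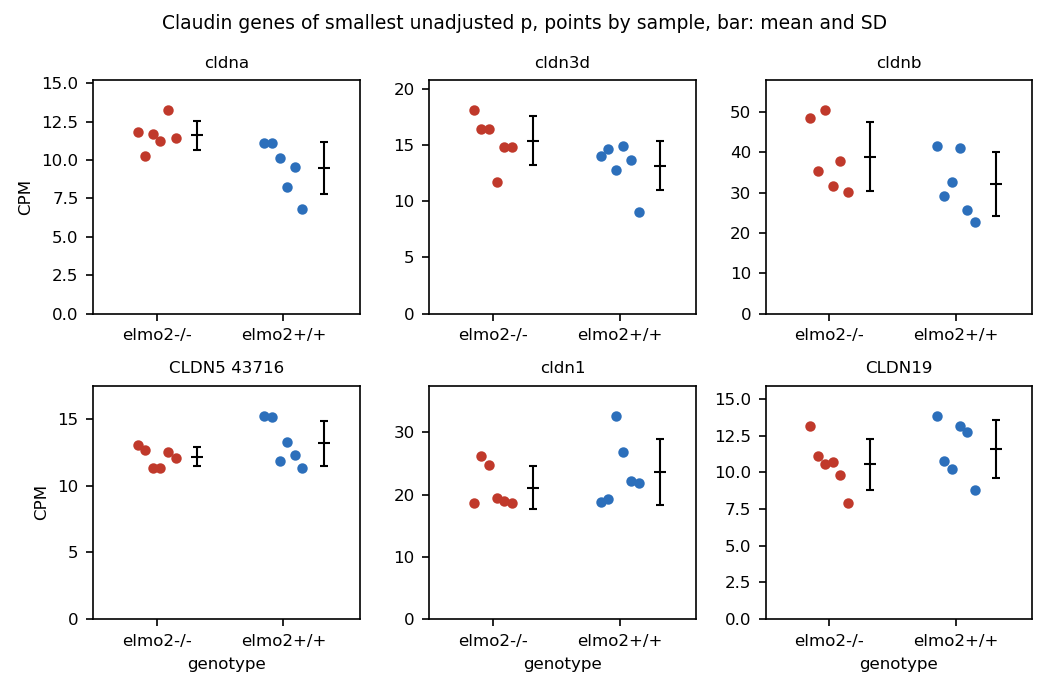
CPM of the 3 claudin genes with a higher estimate (top row) and the 3 with a lower estimate (bottom row) in elmo2-/- larvae that had the smallest unadjusted p, 1 point per sample with elmo2-/- left of elmo2+/+, and bars for mean and SD (n = 6 each). The genotypes overlap in every panel, including cldna, where elmo2-/- samples span 10.3 to 13.2 CPM and elmo2+/+ samples 6.85 to 11.1 CPM.

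Claudin RNA varied more between pools of larvae than between genotypes. The summed claudin level was 609 ± 75.1 CPM in elmo2-/- and 587 ± 92.5 CPM in elmo2+/+ larvae (SD, n = 6 each). Single samples ran from 514 CPM in replicate 4 to 696 CPM in replicate 1 of elmo2-/-, and from 446 CPM in replicate 6 to 685 CPM in replicate 1 of elmo2+/+, a 1.56-fold range over the 12 samples. The median coefficient of variation over the 12 samples was 19.9% for tested claudins and 14.4% for all genes tested. 14 of the 31 claudins had their highest sample more than 2-fold above their lowest, a count for which the share over all genes was not determined.

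Claudins of several epithelia were low in the same sample. elmo2+/+ replicate 6 was the lowest sample for 17 of the 31 tested claudins (54.8%), against 15.7% of all genes tested. Among them were cldn15la, with 26.4 CPM in this sample against 68.1 CPM in elmo2+/+ replicate 4, cldni with 46.2 CPM against 100.1 CPM in elmo2-/- replicate 1, and cldn7b with 23.5 CPM against 48.6 CPM in elmo2-/- replicate 1. Together elmo2-/- replicate 6 and elmo2+/+ replicate 6 held the lowest value of 21 claudins (67.7%, against 27.1% of all genes). Most of these came from elmo2+/+ replicate 6, with 17, and 4 from elmo2-/- replicate 6. At the other end, the highest value lay in a replicate 1 sample for 12 claudins (38.7%, against 22.8% of all genes). For 7 of them this was the elmo2-/- and for 5 the elmo2+/+ sample. The highest value lay in elmo2-/- replicate 3 for 7 claudins, and the share over all genes was not determined for that sample.

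**Figure D4:**
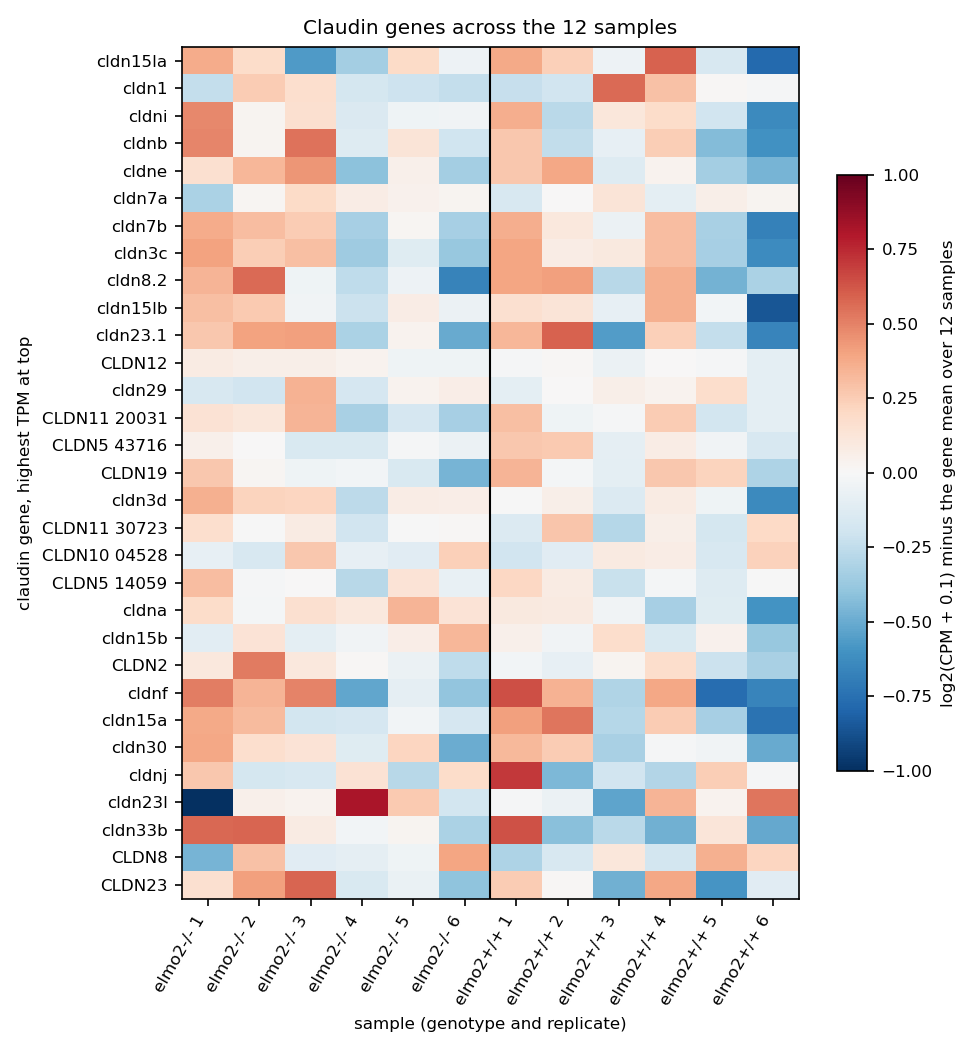
Level of the 31 tested claudin genes in each sample as log2(CPM + 0.1) minus the mean of the gene over the 12 samples, with elmo2-/- replicates left and elmo2+/+ replicates right of the line, and genes in order of mean TPM. Blue dominates the column of elmo2+/+ replicate 6, the lowest sample for 17 genes, whereas CLDN12, with a coefficient of variation of 3.74%, stays pale across its row.

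A few claudins varied little or in another order. CLDN12 was the most even of the family, with a coefficient of variation of 3.74%, 34.5 to 37.8 CPM in elmo2-/- larvae and 33.4 to 35.9 CPM in elmo2+/+ larvae. cldn7a, cldn29 and the CLDN5 gene ENSDARG00000043716 had coefficients of 8.99%, 11.4% and 10.6%. cldn1 had its highest values in elmo2+/+ replicates 3 and 4, with 32.6 and 26.9 CPM, and its lowest in elmo2-/- replicates 1 and 6, both with 18.6 CPM. CLDN8, with 1.19 CPM in elmo2-/- replicate 1 and 2.23 CPM in elmo2-/- replicate 6, and cldn23l, whose coefficient of 35.1% was the largest among tested claudins, had their lowest value in elmo2-/- replicate 1. These genes, apart from cldn1, cldn7a and the CLDN5 gene, were singled out after their values were seen.

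Markers of organs differed between the pools as well. The summed level of 19 enterocyte genes spanned 1982 to 3510.4 CPM in elmo2-/- larvae, highest in replicate 1 and lowest in replicate 3, and 1668 to 3904 CPM in elmo2+/+ larvae, highest in replicate 1 and lowest in replicate 6. cldn15la was likewise lowest in replicate 3 of elmo2-/- and replicate 6 of elmo2+/+ larvae. The summed level of 12 liver genes spanned 2700.4 to 10506 CPM in elmo2-/- larvae and 2731 to 13284 CPM in elmo2+/+ larvae, lowest in replicate 6 of each genotype. cldn15lb, with 17.0 and 9.73 CPM in those samples, was lowest in replicate 6 of elmo2+/+ but in replicate 4, with 15.3 CPM, of elmo2-/- larvae.

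The summed skin markers did not follow this order in every sample. A few keratins set most of this sum. In elmo2-/- larvae krt4, krt5 and krt91 averaged 9293, 3300 and 2551 CPM, against 146 CPM for PPL and 27.8 CPM for TP63. The sum therefore says little of the order of the weaker skin markers. The summed level of 16 epidermis genes, keratins among them, spanned 17662 to 21657 CPM in elmo2-/- larvae and 15705 to 24508 CPM in elmo2+/+ larvae. Among elmo2-/- samples it was lowest in replicate 1, the sample in which cldni, cldn7b and cldn3c were highest. Among elmo2+/+ samples it was lowest in replicate 2 and highest in replicate 4. In elmo2+/+ replicate 6, the lowest sample for 17 claudins, it was 17286 CPM, toward the lower end of that range. Genes of lens and retina were highest in replicate 6 and lowest in replicate 1 of each genotype, 3699 to 6051 CPM in elmo2-/- larvae and 3759 to 6494 CPM in elmo2+/+ larvae. By genotype, 8 enterocyte genes had a higher and 11 a lower estimate in elmo2-/- larvae, and the counts were 10 higher and 2 lower for liver, 9 higher and 7 lower for epidermis, and 6 higher and 10 lower for lens and retina. Of these, 0 were called in edgeR, and 1 enterocyte gene, 3 epidermis genes and 3 genes of lens and retina had an unadjusted p under 0.05, against 4.68% of all genes tested. The enterocyte gene and the 3 epidermis genes were higher and the 3 genes of lens and retina lower in elmo2-/- larvae. In none of these lists was a gene at 0 in all samples, and the part of the tissue makeup of the pools in the claudin values was not tested.

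**Figure D5:**
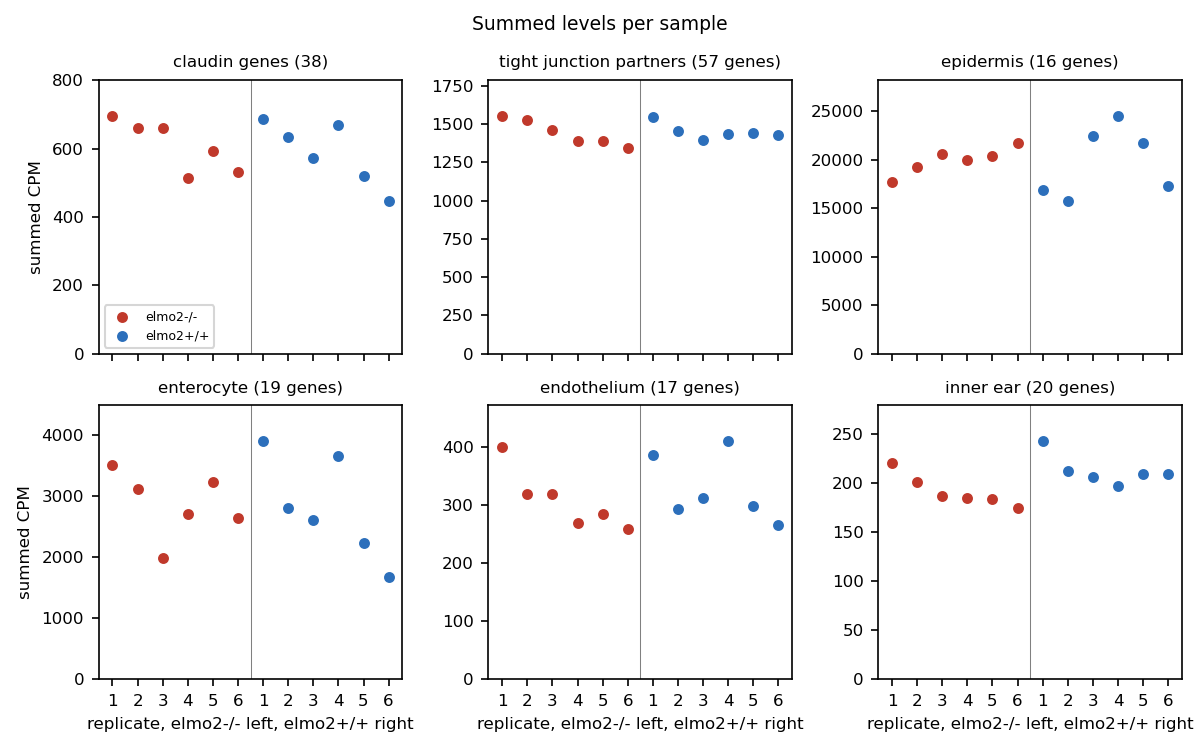
Summed CPM per sample of the claudin genes, of tight junction partners and of marker genes of epidermis, enterocytes, endothelium and inner ear, 1 point per sample, with elmo2-/- replicates left and elmo2+/+ replicates right of the line; each axis starts at 0. The claudin sum is lowest in elmo2+/+ replicate 6, at 446 CPM, as are the enterocyte and endothelium sums of that genotype, and the epidermis sum has its lowest elmo2+/+ value, 15705 CPM, in replicate 2.

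The partners of claudins in the tight junction were also not called. The list holds scaffold, adhesion, polarity and regulatory genes of the junction, and 57 of them were found. Of the 56 tested, 27 had a higher and 29 a lower estimate in elmo2-/- larvae, 0 were called, and 1 had an unadjusted p under 0.05 in edgeR, against 4.68% of all genes. This gene was CRB1 (ENSDARG00000100506), a crumbs protein that fixes the apical side of the cell, with 14.2 ± 1.13 CPM in elmo2-/- and 17.5 ± 1.76 CPM in elmo2+/+ larvae (SD, n = 6 each). Its log2 fold change was -0.30 (SE 0.080), with an unadjusted p of 0.00213 and an adjusted p of 0.9997 in edgeR. The next lower genes were 2 copies of MAGI2, a scaffold protein, with -0.15 (SE 0.080) for ENSDARG00000021590 and -0.18 (SE 0.099) for ENSDARG00000073769. The higher genes of smallest p were pard6ga, a polarity gene at 0.497 ± 0.108 and 0.391 ± 0.0961 TPM, the junctional adhesion gene JAM3 (ENSDARG00000114589) with a log2 fold change of 0.11 (SE 0.070), and crb3b with 0.32 (SE 0.23). The summed level of the partners spanned 1343 to 1553 CPM in elmo2-/- larvae and 1394 to 1545 CPM in elmo2+/+ larvae, a 1.16-fold range against 1.56-fold for the claudins. Such sums do not give the spread of single genes, which differed among the partners.

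Several claudins lie next to each other in the genome, as the RefSeq annotation of the assembly GRCz12tu orders them. 4 neighbours, cldnj, cldne, cldnf and cldna, differed 14.6-fold in mean TPM, from 2.93 TPM for cldnj to 42.8 TPM for cldne. Their log2 fold changes were -0.045, 0.080, 0.074 and 0.29. Another run of 7 genes holds cldnd and cldn28, which are not among the members here, between cldn29 and cldn30. Its 5 members, cldn3c, cldn3d, cldnb, cldn29 and cldn30, differed 12.8-fold, from 3.64 TPM for cldn30 to 46.7 TPM for cldnb. Their log2 fold changes were 0.023, 0.22, 0.28, -0.014 and 0.098. None of these neighbours was called.

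Estimated counts that are not whole numbers mark genes whose reads were divided with other genes, of which kind the files do not say. For 22 of the 38 genes the estimated count was a whole number in all 12 samples, within 0.001 of a count. For the other 16 it was not whole in at least 1 sample. Over all genes, 43.3% to 44.7% of the values of a sample were not exactly whole. This share counts values rather than genes and allows no tolerance, so it cannot be set against the 16 claudins. cldni, cldn15lb, cldnf, cldna, cldn15a, cldnj, cldn23l, CLDN8, CLDN23, the CLDN10 gene ENSDARG00000104528 and the CLDN11 gene ENSDARG00000030723 had whole counts in none of the 12 samples. Their levels, unlike those of cldn15la, cldnb, cldne, cldn7a, cldn7b and cldn3c, rest in part on this division, to an extent that was not determined.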

How the data were processed

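Total RNA of whole larvae was sequenced on a BGISEQ-500 in 12 pools of 30 larvae, grouped by the genotype in their labels. The estimated counts that the authors deposited are unscaled and can be fractions, while the deposited TPM values are divided by transcript length and brought to one total per sample. The submitters' processing notes name Trim Galore 0.6.4, kallisto 0.4.6 and the build GRCz11, without their roles; the annotation and the handling of strand are not given in the sources used here, so that reads of overlapping genes cannot be separated. Symbols came from a table in which 29201 of 32520 identifiers had one. No claudin sequence or coordinate is given, since none of the build of the files was used here.

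Estimated counts were rounded and tested with edgeR 4.0.16 in R 4.3.3 (filterByExpr with a minimum count of 10, TMM, glmQLFit and glmQLFTest, genotype as the only term), with Benjamini-Hochberg adjustment over all 22259 genes tested. The design foresaw counts from kallisto and was kept. Standard errors were derived from the log2 fold change and the F statistic, and 95% intervals from these. Exact two-sided permutation tests ran over the 924 splits of 12 samples on log2 CPM. TPM carried a difference of scale between libraries. In TPM, 44.9% of all tested genes were highest in a replicate 1 sample, against 22.8% in CPM. For this reason the order and spread of samples were read in CPM. The means and ranges given in TPM describe levels and carry this difference of scale. The summed claudin level was lower in elmo2-/- than in elmo2+/+ larvae by TPM (529 against 533) and higher by CPM (609 against 587). The biological coefficient of variation was 0.171. Claudins with few counts, such as cldn33b and cldn23l with means of 14.5 and 26.9 per sample, carry a larger counting error, and the floor of 3 counts covers counting error only. The fit was tested on simulated data.

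Claudins and tight junction partners were named by rule: elmo1, elmo2 and elmo3, the 10 claudins of highest mean TPM, any claudin called or without overlap, the 5 higher and 5 lower claudins of smallest unadjusted p, claudins with a known tissue role, and the 3 higher and 3 lower partners of smallest p. Other claudins are given for completeness or were chosen after their values were seen. The members, the rule and the gene lists were chosen with earlier results of these data known. Alternatives were DESeq2 1.42.0, limma 3.58.1 (TPM with pseudocounts of 1 or 0.1 on a log2 scale), RLE or library size in place of TMM, other filters, the replicate number as a block, leaving out each replicate, and the elmo2-/- library numbers taken apart. Leaving out both replicate 1 samples was added after seeing the data.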

Additional observations from a re-analysis of the deposited data

Results flagged for a closer look

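In 50 groups of 6 samples checked, 2 single samples stood apart from the rest of their group by Dixon's criterion, and chance alone flags about 1 in 20 groups. cldn7a, the claudin of even level described above, had its lowest elmo2-/- value in replicate 1, with 24.2 CPM against 30.6 CPM in the next sample, a gap of 0.628 of the group's range. cldn3d had its lowest elmo2+/+ value in replicate 6, with 9.05 CPM against 12.8 CPM in the next sample, a gap of 0.633 of the range. Without the sample concerned, the log2 fold change was 0.076 for cldn7a and 0.14 for cldn3d, against 0.017 and 0.22 with all samples, and neither was called.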

How the results depend on the processing

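No claudin gene and no tight junction partner was called under any alternative. Over all genes, edgeR called 0, DESeq2 3, and limma 1 each on log2(TPM + 0.1) and log2(TPM + 1). elmo2 was called by these, with log2 fold changes of -0.93 (DESeq2), -1.19 (limma, TPM + 0.1) and -1.17 (limma, TPM + 1), and lay between -1.01 and -0.86 when single replicates were left out. The number of claudins with an unadjusted p under 0.05, 1 in edgeR, is given here with the share of all genes at such a p in brackets. It was 0 with library size alone (4.17%) and with limma on TPM + 0.1 (4.48%) or TPM + 1 (4.5%). It was also 0 with elmo2-/- library numbers 13 to 16 alone (3.05%) or 7 and 8 alone (6.53%). With any gene of at least 1 count kept, cldna and cldn26 made it 2 (4.53%). Leaving out single replicates gave 0 to 3 such claudins. There were 0 without elmo2-/- replicate 5 (3.14%) or elmo2+/+ replicate 4 (5.2%). Without elmo2-/- replicate 4 there were 2, cldn3d and cldna (3.99%). Without elmo2+/+ replicate 1 there were 3, cldn33b, cldna and cldnb (4.63%). Genotypes separated without overlap for 1 claudin with libraries 13 to 16 alone (CLDN12) and for 1 with libraries 7 and 8 alone (cldna), which leave 4 and 2 elmo2-/- samples, and for 0 or 1 when single replicates were left out (cldna without elmo2-/- replicate 2). With fewer samples genotypes separate more easily, and the share over all genes was not determined for these sets. These separations are therefore not read as a result about claudins. The claudin median of the log2 fold change lay between -0.0033 and 0.11 without single replicates, and the summed TPM between 499 and 551 in elmo2-/- and between 506 and 560.4 in elmo2+/+ larvae. By CPM, 8 of the 10 most abundant claudins by TPM were kept.

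Signs turned mostly for small log2 fold changes, but also for those of CLDN2 and cldn33b, at 0.16 and 0.32 in edgeR with all samples. With elmo2-/- libraries 7 and 8 alone the log2 fold changes that turned were -0.00053 (cldni), -0.12 (cldne), -0.14 (cldn7b), -0.27 (cldn3c), -0.000068 (CLDN11, ENSDARG00000030723), -0.088 (CLDN2), -0.28 (cldnf), -0.14 (cldn15a) and -0.055 (cldn33b). With libraries 13 to 16 alone they were 0.13 (cldn8.2), 0.040 (CLDN11, ENSDARG00000020031) and -0.00096 (CLDN10, ENSDARG00000104528). With library size alone they were -0.0060 (cldn7a), -0.0041 (CLDN11, ENSDARG00000030723) and -0.015 (cldn15a). In limma with TPM + 0.1 they were -0.031 (cldn7a), -0.013 (cldn3c), -0.015 (CLDN11, ENSDARG00000030723) and -0.018 (CLDN10, ENSDARG00000104528), and with TPM + 1 they were -0.030, -0.012, -0.014, -0.017 and, for cldn15a, -0.0028. cldn15a was also below zero with DESeq2 (-0.0024), RLE (-0.0022), the 1 CPM filter (-0.00033) and the filter of any count (-0.0021). Without both replicate 1 samples, chosen after seeing the data, CLDN11 (ENSDARG00000030723) was at -0.048 and cldnj at 0.078. The cause was not tested for any of these.

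Leaving out single replicates turned the sign of 13 named claudins, whose log2 fold changes then spanned -0.22 to 0.022 (cldn15la), -0.0078 to 0.17 (cldne), -0.023 to 0.076 (cldn7a), -0.026 to 0.16 (cldn7b), -0.080 to 0.11 (cldn3c), -0.16 to 0.079 (cldn8.2), -0.045 to 0.16 (cldn15lb), -0.043 to 0.074 (CLDN11, ENSDARG00000030723), -0.030 to 0.079 (CLDN10, ENSDARG00000104528), -0.031 to 0.085 (CLDN5, ENSDARG00000014059), -0.046 to 0.24 (cldnf), -0.12 to 0.12 (cldn15a) and -0.13 to 0.14 (cldnj).

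Same-numbered samples of the genotypes did not all deviate together (correlations of 0.62, 0.079, 0.094, -0.25, -0.040 and 0.46 for replicates 1 to 6, with a best match to their own number in 2 of the 6), so the numbers were not taken to pair the samples. With the replicate number as a block 0 claudins were called, 2 (cldna and cldnb) had an unadjusted p under 0.05, where 6.49% of all genes did, and elmo2 was at -0.93.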
